A study of Mus musculus with 38 samples.

Results

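The genes described are 10 components of the engine that drives meiosis and mitosis. They include the cyclins of meiotic or mitotic M-phase Ccnb1, Ccnb2, Ccnb3 and Ccna2, and those of the G1 and S phases Ccne1, Ccne2 and Ccnd3. The others are the kinases Cdk1 and Cdk2, and Cks2, a small subunit that binds these kinases. All 10 were taken by gene symbol from a table of 23125 genes, and each symbol had 1 row. The table gives FPKM, fragments per kilobase of exon scaled to the mapped fragments of the library, and has a smallest value of 0.01, called the floor here.

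A cyclin is the regulatory partner without which its kinase has little activity. Cyclin B bound to Cdk1 forms M-phase promoting factor, which takes the cell into M-phase and is switched off when cyclin B is destroyed. The fully grown oocyte makes almost no new RNA, so its cyclins are made from stored mRNA, and the translation of Ccnb1 during meiotic maturation is a classical case of control through the 3′ end of an mRNA.

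The study asked how the mRNAs on polysomes, where several ribosomes translate one mRNA, change between interphase and M-phase in the mouse oocyte and early embryo. Cells treated with cycloheximide, which holds ribosomes on mRNA, were lysed and separated on sucrose gradients into 10 fractions, of which the 5 light ones were pooled as non-polysome and the 5 heavy ones as polysome RNA. Of 38 samples, 36 libraries had a column in the table, 3 for each of 2 fractions at 6 stages. Replicate A of the zygote was not analysed here in either fraction, so the zygote replicates are B, C and D and all others A, B and C.

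All oocytes and embryos came from ICR mice at least 6 weeks old that had been stimulated with PMSG. GV oocytes are arrested in prophase of meiosis I, and MII oocytes in metaphase of meiosis II after maturation in culture without their cumulus cells. Zygotes at the pronuclear stage came from females given hCG and then mated within the strain, and two-cell embryos were cultured from such zygotes. Zygote M and two-cell M are embryos in the M-phase of the first and second mitosis, although the labels place them in M-phase of meiosis. They had been treated with 10 µM nocodazole, which depolymerizes microtubules, so that in embryos M-phase and nocodazole cannot be told apart. The study calls its replicates biological, but the labels do not say whether they came from separate collections, and the p-values measure the spread between these libraries.

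Marker genes followed the labels in part. The summed level of 12 oocyte genes was 6734 to 8215 FPKM in polysome GV libraries and 59.0 to 246 FPKM in polysome two-cell M libraries. The 13 two-cell genes summed to 488 to 751 FPKM in the non-polysome two-cell libraries. In the polysome ones they summed to 136 to 204 FPKM, which overlaps with the 176 to 323 FPKM of polysome GV. Of the 13 genes, however, 5 were at the floor in every polysome GV library. Zscan4c, Zscan4d and Zfp352, looked at singly, were at most 0.0758, 0.0845 and 0.01 FPKM in polysome GV. In polysome two-cell they were at least 2.38, 5.69 and 4.37 FPKM. The 8 cumulus and granulosa cell genes that were listed summed to at most 3.07 FPKM, and 2 of them exceeded 1 FPKM in any library. The sum of 3 sperm genes did not exceed 6.32 FPKM. Globin and related genes of red blood cells summed to 34.3 to 83.7 FPKM in polysome two-cell and to 24.4 to 42.5 FPKM in polysome two-cell M libraries, against at most 1.33 FPKM in any library of the 4 earlier stages. They were highest in non-polysome two-cell, at 99.7 to 162 FPKM, and lay between 0.04 and 52.6 FPKM in non-polysome two-cell M. Of the 4 genes in this sum 2 exceeded 1 FPKM in any library, and Hba-a1 alone reached 159.5 FPKM. The part of these genes in the results for two-cell embryos was not tested.

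Between 3278 and 5126 genes exceeded 1 FPKM in a library, and how many reads lie behind a value cannot be known from FPKM. Replicates were most alike in the polysome zygote, with correlations across genes of 0.956 to 0.961, and least in the non-polysome two-cell, with 0.584 to 0.643. Gapdh stood at 0.0272 FPKM in the non-polysome two-cell M library A, although every cell uses it. A value near the floor in such a library therefore cannot be read as absence. FPKM is relative to the total of each library, so fewer copies per cell and a larger total cannot be told apart, and a level in polysomes is not a share of the molecules of an mRNA.

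Maternal mRNAs such as Ccnb1 are known to be regulated through short U-rich elements close to the polyadenylation signal. The 3′ ends shown are those of Ccnb1, Ccna2, Ccne1 and Cks2, all of which had such an element. The cytoplasmic polyadenylation elements TTTTAT and TTTTAAT and the signal AATAAA were searched in the last 150 bases of the 3′ untranslated region of GENCODE vM21 transcripts, on the strand of the RNA, as DNA letters. In the windows below, on GRCm38 and written 5′ to 3′, capitals mark these motifs.
Ccnb1, chr13:100778775-100778804, minus strand: ctcatttgctgTTTTAATttatacatctga
Ccnb1, chr13:100778747-100778776, minus strand: gatatcaagttgAATAAAatttattggtgg
Ccna2, chr3:36566026-36566055, minus strand: tatttggataaTTTTAATtggttaacattg
Ccne1, chr7:38097992-38098021, minus strand: gtctatcaatTTTTAATAAAgataatacta
Cks2, chr13:51650609-51650638, plus strand: gTTTTATtttacctgttttgttaAATAAAg

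Ccnb1 has 2 transcripts with different 3′ ends, and the windows are from the shorter. In it the element TTTTAAT began 62 bases and the signal 33 bases before the end. In the longer one, used for the alignment to its copy, TTTTAAT began 144 bases and AATAAA 115 and 24 bases before the end. In Ccne1 the element and the signal overlapped, starting 28 and 24 bases before the end. In Cks2 TTTTAT began 51 bases before the end and AATAAA 29. Ccna2 had TTTTAAT in 1 of its transcripts, the one shown. Its transcript annotated as principal is another, which had AATAAA but no element in this window. Of the 10 genes 6 had an element in this window, with TTTTAAT in Ccnb1, Ccna2 and Ccne1 and TTTTAT in Ccnb3, Cdk2 and Cks2. The transcripts of Ccnb2, Ccne2, Ccnd3 and Cdk1 had neither. Of 6296 tested protein-coding genes, 24% had TTTTAT, 9.59% TTTTAAT, 30.4% either of them and 74.1% AATAAA in the same window.

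A second set of sequences is shown because it limits what can be said of Ccnb1. Ccnb1 (chr13:100778650-100786570, minus strand) has a processed copy, the pseudogene Ccnb1-ps (chr7:42105899-42107185, minus strand), which aligned to bases 169 to 1455 of the Ccnb1 transcript with 10 mismatches in 1287 bases, an identity of 99.2%. The aligned bases lie in the coding region, which runs from base 169 to base 1461. The longest identical run was 278 bases, and 306 of 1138 windows of 150 bases, the read length, were identical (26.9%). The 60 bases with most differences are given below, with the 2 differing positions in capitals.
Ccnb1, chr13:100783528-100783587, minus strand: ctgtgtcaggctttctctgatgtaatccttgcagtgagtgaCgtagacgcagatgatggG
Ccnb1-ps, chr7:42106712-42106771, minus strand: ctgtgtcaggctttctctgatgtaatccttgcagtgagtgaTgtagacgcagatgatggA

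Ccnb1-ps was listed at 2.36 to 3.56 times the FPKM of Ccnb1 in the 36 libraries, with a median ratio of 2.99. Another copy of Ccnb1, Gm12856, with 98.1% identity, ranged from 9.50 to 92.6 FPKM. The copies Gm4870, with 94.4% identity, and Gm7067, with 85.9%, did not exceed 0.320 and 0.834 FPKM. Cks2 has the copy Gm15452, identical to it over all of its 240 bases and listed at 2.29 to 590.1 FPKM, and the copy Gm12891, which reached 1.39 FPKM. Ccnd3-ps, with 96.3% identity to Ccnd3, reached 14.3 FPKM, and Ccnb2-ps did not exceed 0.113 FPKM. How reads were divided between a gene and its copy is not given in the sources used here, so the levels of Ccnb1, Cks2 and Ccnd3 are uncertain to that extent. Ccna2 overlaps Exosc9, Ccne2 overlaps Ints8 and Ccnd3 overlaps Bysl on the opposite strand, and the library kit does not mark strand.

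**Figure D1:**
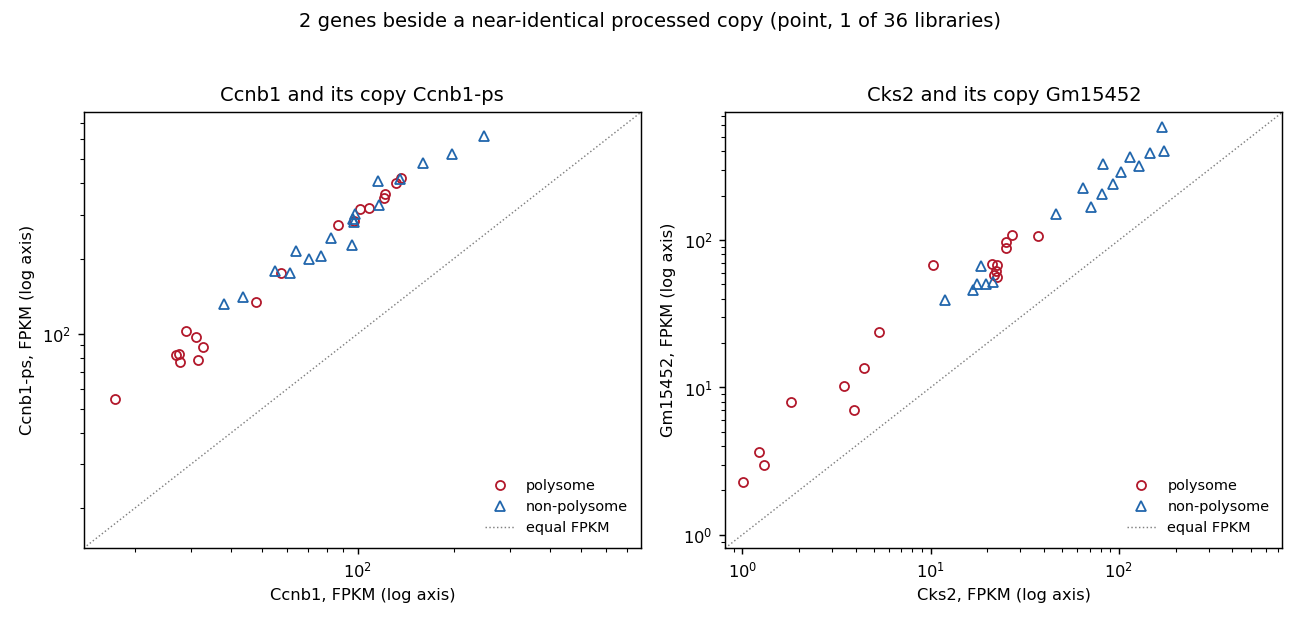
FPKM of Ccnb1 against its copy Ccnb1-ps (left) and of Cks2 against its copy Gm15452 (right), on log axes, with each point 1 of 36 libraries; red circles are polysome and blue triangles non-polysome libraries. All points lie above the dotted line of equal FPKM, and the copy of Ccnb1 keeps a ratio between 2.36 and 3.56.

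Ccnb1, the main partner of Cdk1 in oocytes, had the highest mean FPKM of the 10 genes in 10 of 12 groups. In the non-polysome two-cell and two-cell M groups it was second to Cks2. Its libraries overlapped with those of the next gene in the order in polysome two-cell and in non-polysome GV, zygote M and both two-cell groups. Ccna2, the cyclin of S phase and mitotic entry, was among the top 3 in 10 groups and Cks2 in 9. Ccnb3, a cyclin of the meiotic metaphase to anaphase step, was last in 11 of 12 groups and tied with Ccne2 at the floor in non-polysome two-cell M. It was at the floor in 18 of 36 libraries and had a highest value of 0.214 FPKM, in the non-polysome MII library A. It did not pass the minimum of a geometric mean of 0.1 FPKM, so the other 9 genes were tested.

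**Figure D2:**
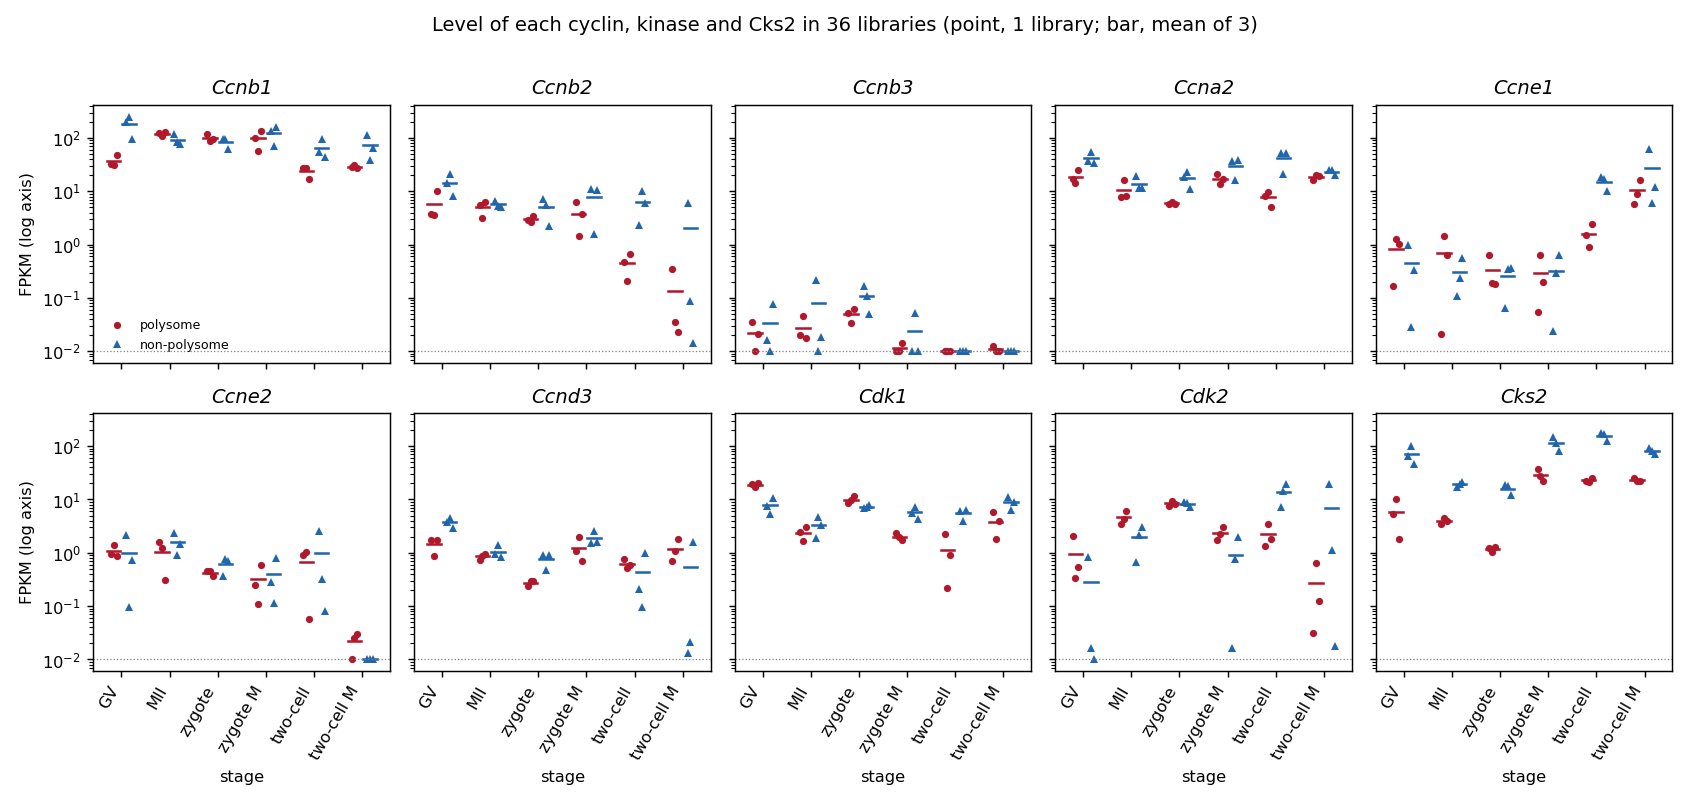
FPKM on a log axis by stage for each of the 10 genes, with each point 1 library and each bar the mean of 3; red circles are polysome and blue triangles non-polysome, and the dotted line is the floor of 0.01. Ccnb1 lies above the other genes in 10 of 12 groups, and Cdk1 on polysomes is highest at GV.

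A stage effect over the 6 stages of a fraction was called for 16 of 18 gene and fraction combinations. Among all 7967 genes tested, 62.9% had one on polysomes and 78.3% off them. The exceptions were Ccnd3 in polysomes (adjusted p = 0.355) and Cdk1 in the non-polysome fraction (adjusted p = 0.248). Cdk2 in polysomes was at the threshold (adjusted p = 0.049998). Ccnb1 passed in the non-polysome fraction (adjusted p = 0.0280) while its copy did not (adjusted p = 0.141).

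Of the 3 steps into M-phase, the first asked what changed on polysomes when the oocyte went from prophase arrest to metaphase II. Ccnb1 rose about 3-fold and Cdk1 fell about 8-fold, in opposite directions although their proteins work as one complex. Of the 9 genes tested these 2 were called, with an adjusted p under 0.05 and a fold change beyond 2, beside 6.11% of all genes. The median change of all genes was 0.18 on the log2 scale, and 268 genes were called higher and 219 lower, against 701 and 844 after quantile normalization. The 3 libraries of one group did not overlap with those of the other for 47.5% of all genes.

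Ccnb1 had 32.8, 31.6 and 47.8 FPKM on polysomes at GV and 122, 108 and 132 FPKM at MII. All 3 MII libraries were above all 3 GV libraries. This was a log2 fold change of 1.71 (SE 0.42, limma adjusted p = 0.0115), and 1.53 relative to the median of all genes. Ccnb1-ps rose by 1.88 (adjusted p = 0.00403). Without GV library A, GV library B or MII library C the adjusted p was 0.0511, 0.0562 and 0.0546, with log2 fold changes of 1.63, 1.60 and 1.64.

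Cdk1, the catalytic partner, had 19.4, 16.8 and 20.4 FPKM on polysomes at GV and 2.49, 1.63 and 3.0 FPKM at MII. The groups were far apart, with a log2 fold change of -3.03 (SE 0.61, adjusted p = 0.00162), and the call was kept without any single library of the 2 groups. The ratio of Ccnb1 to Cdk1 was thus between 1.69 and 2.34 in the GV polysome libraries and between 44.0 and 66.3 in those of MII.

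Cks2 stood at 5.32, 10.3 and 1.81 FPKM on polysomes at GV and at 3.47, 4.41 and 3.91 FPKM at MII. The groups overlapped (log2 fold change -0.24, adjusted p = 0.855). Ccna2 had 17.4, 14.6 and 24.7 FPKM at GV and 7.81, 16.1 and 8.30 FPKM at MII, again with overlap (log2 fold change -0.86, adjusted p = 0.325). Ccnb2, a second B-type cyclin, had 3.73, 3.62 and 10.3 FPKM at GV and 5.54, 3.20 and 6.21 FPKM at MII. Its change was -0.11 with an SE of 1.31. The ratio of Ccnb1 to Ccnb2 on polysomes went from 4.65 to 8.80 in GV libraries to 21.3 to 33.8 in MII libraries, without overlap. The changes of Ccne1, Ccne2, Ccnd3 and Cdk2 lay between -1.17 and 2.64 and were not called, with adjusted p of 0.468 and above. With the 2 groups alone Cdk2 was called (adjusted p = 0.0361).

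In the first mitosis, from zygote to zygote M, Cks2 rose about 24-fold on polysomes and Ccna2 rose about 3-fold, while Cdk1 fell about 5-fold. These were 3 of the 9 genes tested, beside 5.75% of all genes, and the median change of all genes was -0.43. The groups did not overlap for 56.5% of all genes.

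Cks2 had 1.23, 1.02 and 1.31 FPKM on polysomes in zygotes and 37.3, 27.0 and 22.3 FPKM in zygote M. No other called change of the 9 genes between an interphase and its M-phase on polysomes was as large, with a log2 fold change of 4.58 (SE 0.45, adjusted p = 3.08e-08), and the call was kept without any single library. Its identical copy Gm15452 stood at 3.66, 2.29 and 2.96 FPKM in zygotes and at 106, 108 and 61.6 FPKM in zygote M.

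Ccna2 had 5.90, 6.19 and 5.69 FPKM on polysomes in zygotes and 21.5, 13.5 and 17.0 FPKM in zygote M, without overlap. The change of 1.52 on the log2 scale was called (SE 0.45, adjusted p = 0.0413). The call was lost without any one of the 6 libraries, with values from 1.36 to 1.69 and adjusted p from 0.0640 to 0.167.

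Cdk1 had 8.56, 9.73 and 11.4 FPKM on polysomes in zygotes and 2.31, 1.99 and 1.74 FPKM in zygote M, without overlap. The log2 fold change was -2.30 (SE 0.61, adjusted p = 0.0200). The call was kept only without zygote M library A. Without any other library the value was between -2.40 and -2.19 and the adjusted p between 0.0511 and 0.0852.

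Ccnb1 had 121, 86.6 and 97 FPKM on polysomes in zygotes and 102, 57.6 and 137 FPKM in zygote M. The groups overlapped, and the log2 fold change of -0.11 (SE 0.42, adjusted p = 0.968) became 0.31 relative to the median of all genes. Cdk2, the partner of cyclins E and A, had 7.67, 9.26 and 8.36 FPKM in zygotes and 1.78, 2.29 and 3.0 FPKM in zygote M. Although these did not overlap, the change of -1.87 had an SE of 1.75 (adjusted p = 0.753). With the 2 groups alone it was called (adjusted p = 0.00228). Ccnd3, a D-type cyclin that links growth signals to G1, had 0.237, 0.296 and 0.292 FPKM in zygotes and 1.08, 1.96 and 0.690 FPKM in zygote M, also without overlap. Its change of 2.05 was not called (adjusted p = 0.359), but after quantile normalization it was 3.66 (adjusted p = 0.000624), and with the 2 groups alone the adjusted p was 0.0151. Ccnb2, Ccne1 and Ccne2 stood at changes of 0.11, -0.57 and -0.73, none of them called.

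In the second mitosis Ccna2 and Cdk1 rose on polysomes and Ccne2 fell. These were 3 of 9 genes beside 36.3% of all genes, a share close to theirs. The median change of all genes was -1.17, and called genes were 648 higher and 2242 lower, against 1482 and 1490 after quantile normalization. The groups did not overlap for 43.4% of all genes.

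Ccna2 had 8.28, 9.81 and 5.14 FPKM on polysomes in two-cell and 16.3, 20.2 and 19.5 FPKM in two-cell M embryos, without overlap. Their log2 fold change was 1.31 (SE 0.45, adjusted p = 0.0242), and 2.48 relative to the median. Without two-cell library C it was 1.04 (adjusted p = 0.117) and without two-cell M library B 1.254 (adjusted p = 0.0613). Fitted on the libraries of these 2 groups alone it was not called (adjusted p = 0.0725).

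Cdk1 had 2.27, 0.219 and 0.893 FPKM on polysomes in two-cell and 5.72, 1.83 and 3.87 FPKM in two-cell M embryos, and the ranges overlapped. The fitted log2 fold change was 2.17 (SE 0.61, adjusted p = 0.00668). Without two-cell library B, which holds the lowest value, it was 1.27 (adjusted p = 0.0955), and with the 2 groups alone the adjusted p was 0.178. The direction for Cdk1 was thus down in the first 2 M-phases and up in the third.

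Ccne2, a partner of Cdk2, stood at 0.919, 1.02 and 0.0568 FPKM on polysomes in two-cell and at the floor, 0.0255 and 0.0301 FPKM in two-cell M embryos. The fitted change was -4.25 (SE 1.17, adjusted p = 0.00562) and rests on values near the floor. After quantile normalization it was -1.70 (adjusted p = 0.201), with 1 added to each FPKM -0.65 (adjusted p = 0.178), and with the 2 groups alone the adjusted p was 0.0780. In the non-polysome fraction all 3 two-cell M libraries were at the floor, after 2.61, 0.325 and 0.0817 FPKM in two-cell embryos.

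Ccnb1 had 27.7, 27.0 and 17.3 FPKM on polysomes in two-cell and 29.0, 31.1 and 27.5 FPKM in two-cell M embryos, with overlap (log2 fold change 0.31, adjusted p = 0.594). Cks2 stood at 21.8, 21.1 and 25.1 FPKM and then at 25.1, 22.6 and 22.4 FPKM (log2 fold change 0.04, adjusted p = 0.952). Relative to the median of all genes these changes were 1.48 and 1.21. Ccne1, the main cyclin of S phase entry, had 1.49, 0.907 and 2.39 FPKM in two-cell and 5.90, 8.96 and 16.7 FPKM in two-cell M embryos. The groups did not overlap, but the change of 2.70 was not called (SE 1.42, adjusted p = 0.141). After quantile normalization it was called at 3.16 (adjusted p = 0.0498), as it was with 0.1 or 1 added (adjusted p = 0.0322 and 0.00204) and with the 2 groups alone (adjusted p = 0.0344). Cdk2 went from 1.33, 3.54 and 1.80 FPKM to 0.0318, 0.656 and 0.124 FPKM, again without overlap and without a call (-3.89, adjusted p = 0.0835). Ccnb2 and Ccnd3 had changes of -2.62 (adjusted p = 0.121) and 0.85 (adjusted p = 0.564). That of Ccnd3 was 1.95 after quantile normalization and then called (adjusted p = 0.0356). That of Ccnb2 was called without two-cell M library A (-3.83, adjusted p = 0.0390).

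**Figure D3:**
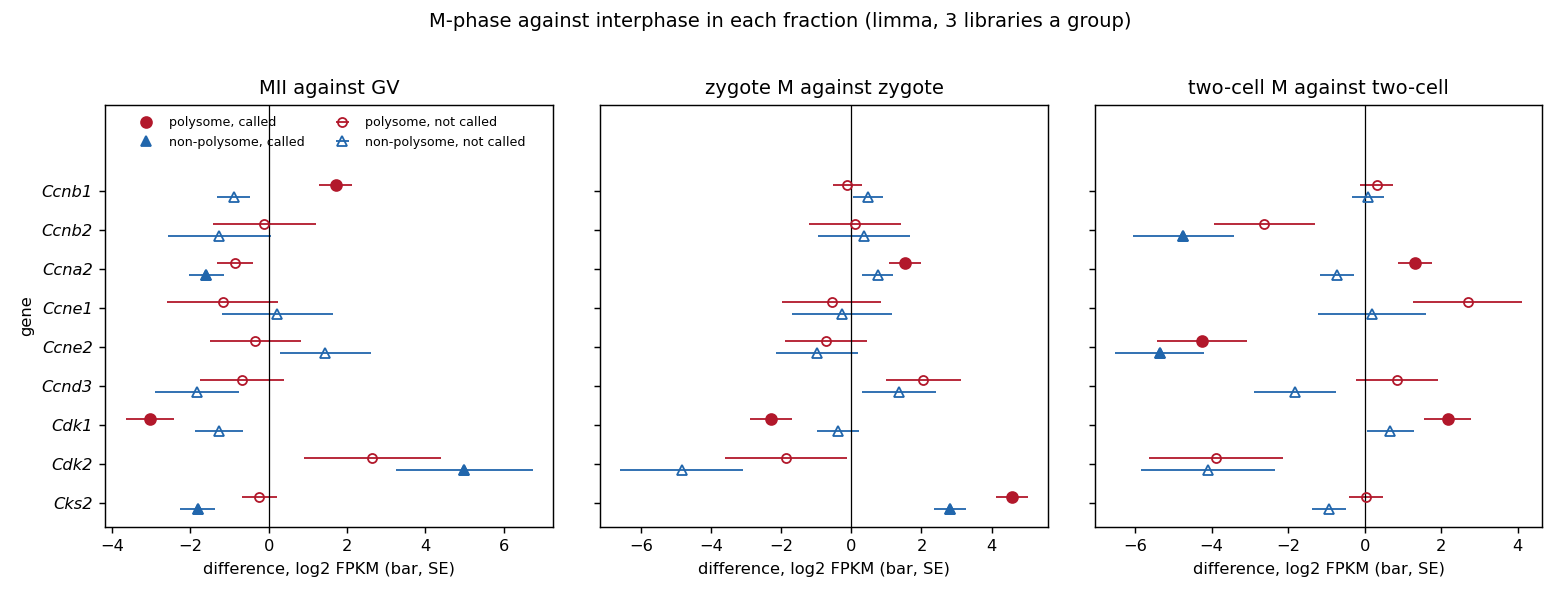
Log2 FPKM in M-phase minus log2 FPKM in interphase for the 9 genes tested, with the SE as bars, in MII against GV, zygote M against zygote and two-cell M against two-cell; red circles are polysome and blue triangles non-polysome, and filled symbols were called by limma. Cdk1 on polysomes lies at -3.03, -2.30 and 2.17, and Cks2 at -0.24, 4.58 and 0.04.

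Whether these changes differed from one cell cycle to the next was tested in the same fit, a comparison added after the data had been seen. Between GV to MII and zygote to zygote M, Ccna2 and Cks2 differed, 2 of 9 genes beside 9.51% of all genes. Between GV to MII and two-cell to two-cell M, Ccna2 and Cdk1 differed, a share close to the 23.5% of all genes. Between zygote to zygote M and two-cell to two-cell M, Cdk1 and Cks2 differed, a share close to the 23.7% of all genes. For Cdk1 the difference was -5.20 in the second of these (SE 0.86, adjusted p = 6.42e-05). After quantile normalization Ccnb1 (2.15, adjusted p = 0.00954), Ccnd3 (-4.99, adjusted p = 0.00064) and Cdk2 (4.97, adjusted p = 0.0353) also differed in the first comparison. In the second Ccnd3 (-3.28, adjusted p = 0.0162) and Cdk2 (5.13, adjusted p = 0.0247) did. Of all genes 872, 1158 and 1268 were then called higher and 1085, 1261 and 1088 lower, in the same order of comparisons.

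Cell cycle genes outside the 10 were followed through a list of 42 other cyclins, kinases, inhibitors and factors of cyclin destruction, of which 29 were tested. On polysomes 1 rose and 2 fell from GV to MII, 2 rose and none fell from zygote to zygote M, and 1 rose and 12 fell from two-cell to two-cell M, beside 6.11%, 5.75% and 36.3% of all genes called. After quantile normalization these counts were 3 and 3, 5 and 2, and 5 and 7, higher and lower. Of all 7967 genes, 701 and 844, 666 and 496, and 1482 and 1490 were called higher and lower with this normalization. Without it 268 and 219, 258 and 200, and 648 and 2242 were called higher and lower. The list medians without it, -0.16, -1.15 and -1.49, stood beside medians of 0.18, -0.43 and -1.17 for all genes. Cdc20, the activator of the complex that marks cyclin B for destruction, was called higher in all 3 M-phases, also after quantile normalization.

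Cdc20 had 4.77, 5.85 and 4.48 FPKM on polysomes at GV and 130.4, 136 and 157 FPKM at MII, a log2 fold change of 4.81 (adjusted p = 8.98e-10). Its changes were 6.16 in the first and 1.39 in the second mitosis. Cks1b, the close relative of Cks2, had 22.4, 17.7 and 25.3 FPKM in zygotes and 388, 270.2 and 324 FPKM in zygote M, a rise of 3.91 (adjusted p = 1.78e-08). From two-cell to two-cell M it fell by 2.48 on the log2 scale (adjusted p = 6.99e-06), where Cks2 was not called.

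The study also set oocytes against embryos in the same phase. In interphase GV oocytes had less Ccnb1 and more Ccna2 and Cks2 on polysomes than zygotes, 3 of 9 genes beside 5.61% of all genes. The log2 difference was -1.45 for Ccnb1 (adjusted p = 0.0390) and 1.64 for Ccna2 (adjusted p = 0.0275). For Cks2 it was 1.97 (adjusted p = 0.00533). With no minimum Ccnb1 was not called (adjusted p = 0.0597). After quantile normalization Ccnd3 (3.58, adjusted p = 0.000802) and Cdk2 (-4.61, adjusted p = 0.00849) were called as well. The call for Ccnb1 was lost without any library other than GV C and that for Ccna2 without any library other than GV B, with adjusted p up to 0.168. That for Cks2 was lost without GV library B (1.397, adjusted p = 0.0919) and with the 2 groups alone (adjusted p = 0.0576).

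Against two-cell embryos GV oocytes had more Cdk1 (log2 difference 4.62, adjusted p = 3.91e-06) and less Cks2 (-2.29, adjusted p = 0.000603) on polysomes. Ccna2 was also called higher (1.30, adjusted p = 0.0459), but the median of all genes was 0.85 higher in GV. Quantile normalization gave 0.84 (adjusted p = 0.196), and the call was lost without any library other than two-cell B, with values down to 1.03. With no minimum the adjusted p was 0.0519 and with the 2 groups alone 0.0625. After quantile normalization Ccnb2 was called too (3.77, adjusted p = 0.00421). Of all genes 16.7% were called.

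Among M-phases, MII and zygote M differed for Cks2 alone of the 9 genes, a share close to the 12.4% of all genes. For Cks2 the log2 difference was -2.85 (adjusted p = 4.58e-05), and its values of 3.47 to 4.41 FPKM in MII did not overlap with the 22.3 to 37.3 FPKM of zygote M. Ccnb1 differed by 0.37 with an SE of 0.42. After quantile normalization Ccna2 was called too (-1.39, adjusted p = 0.0293).

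Between MII and two-cell M, 53% of all genes were called and their median was 2.64 higher in MII. Of the 9 genes Ccnb1, Ccnb2, Ccne2 and Cdk2 were higher in MII and Ccne1 and Cks2 lower. Ccnb1 was higher by 2.04 (adjusted p = 0.000249) but at -0.60 relative to the median of all genes. Ccnb2 was higher by 6.18 (adjusted p = 0.000312), with two-cell M libraries at 0.355, 0.035 and 0.023 FPKM. For Ccne1 the difference was -5.15 (adjusted p = 0.00359), and -3.297 without MII library A, which stood at 0.0208 FPKM (adjusted p = 0.0572). Ccne2 and Cdk2 lost their calls after quantile normalization (adjusted p = 0.205 and 0.0952), Ccne2 also with 1 added (0.93), and Cdk2 without two-cell M library A (3.97, adjusted p = 0.0963). Quantile normalization also called 3 further genes, all lower in MII, namely Ccna2 (-1.82, adjusted p = 0.00238), Ccnd3 (-2.51, adjusted p = 0.00585) and Cdk1 (-1.93, adjusted p = 0.0135).

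From MII to the zygote, the step of fertilization, Cdk1 rose on polysomes by 2.10 on the log2 scale (adjusted p = 0.0438) and Cks2 fell by 1.73 (adjusted p = 0.0171), 2 of 9 genes beside 4.57% of all genes. For Cdk1 the zygote libraries of 8.56 to 11.4 FPKM lay above the MII libraries of 1.63 to 3.0 FPKM. The call was lost without any one of the 6 libraries, with values from 1.85 to 2.29 and adjusted p up to 0.219. That for Cks2 was lost without MII library B or C or zygote library B or C, with adjusted p from 0.0559 to 0.0895. After quantile normalization Ccnd3 was called too (-2.25, adjusted p = 0.0412).

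Over the first cleavage, from zygote M to two-cell, Ccnb1 fell on polysomes by 1.99 on the log2 scale (adjusted p = 0.00316), from 57.6 to 137 FPKM down to 17.3 to 27.7 FPKM. It was the one gene called of 9, beside 6.19% of all genes. After quantile normalization Ccnb2 (-3.44, adjusted p = 0.0169) and Ccne1 (3.93, adjusted p = 0.0426) were called too.

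Between the interphases, two-cell embryos had less Ccnb1 (-2.10, adjusted p = 0.000886) and Cdk1 (-3.69, adjusted p = 8.61e-05) and more Cks2 (4.26, adjusted p = 6.11e-08) on polysomes than zygotes, beside 16% of all genes called and a median of -0.98. Cks2 had 1.02 to 1.31 FPKM in zygotes and 21.1 to 25.1 FPKM in two-cell embryos. These calls were kept without any single library. After quantile normalization Ccnb2 (-2.92, adjusted p = 0.0247), Ccne1 (4.20, adjusted p = 0.0147) and Ccnd3 (2.80, adjusted p = 0.00476) were called as well.

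Between the M-phases of the embryo, where the median of all genes was -2.04 and 51.7% of genes were called, Ccne1 was higher in two-cell M than in zygote M by 5.64 (adjusted p = 0.00171). Its zygote M libraries stood at 0.0545, 0.646 and 0.201 FPKM. Ccnb1, Ccnb2 and Ccne2 were lower. For Ccnb1 the difference was -1.67 (adjusted p = 0.00181) but 0.37 relative to the median. Ccne2 was not called after quantile normalization (-0.26, adjusted p = 0.855), nor with 0.1 added (-1.61, adjusted p = 0.114) or 1 added (-0.35, adjusted p = 0.446), nor without zygote M library C (-3.08, adjusted p = 0.0564).

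The polysome stages could be put in order for each gene by the mean. Mean Ccnb1 was 121, 102 and 98.8 FPKM at MII, zygote and zygote M, which overlapped, then 37.4 at GV and 29.2 and 23.99 at two-cell M and two-cell. Mean Cdk1 was 18.9 FPKM at GV and 9.89 in the zygote, each apart from the next, followed by 3.80, 2.37, 2.01 and 1.13 in two-cell M, MII, zygote M and two-cell, in which neighbours overlapped. Mean Cks2 was 28.9, 23.4 and 22.7 FPKM in zygote M, two-cell M and two-cell, which overlapped, 5.805 and 3.93 at GV and MII, which overlapped, and 1.18 in the zygote. Mean Cdk2 was 8.43 FPKM in the zygote and 4.604 at MII, each apart from the next, followed by 2.36, 2.22, 0.970 and 0.271 in zygote M, two-cell, GV and two-cell M. Ccnd3 ranged from 0.237 to 1.96 FPKM over the 18 polysome libraries. Its lowest mean, 0.275 FPKM in the zygote, was apart from the next, 0.624 FPKM in two-cell.

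The same steps were followed in the RNA that was not on polysomes. From GV to MII Ccna2 and Cks2 fell there and Cdk2 was called higher, 3 of 9 genes beside 16.6% of all genes. Cks2 had 64.6, 103 and 46.4 FPKM at GV and 16.8, 19.6 and 21.5 FPKM at MII, a fall of 1.81 on the log2 scale (adjusted p = 0.00520). Ccna2 went from 37.4, 53.6 and 33.8 FPKM to 19.1, 11.4 and 11.4 FPKM, a fall of 1.59 (adjusted p = 0.0150). Without MII library B or C or GV library B it was not called, with values from -1.47 to -1.39. Neither group overlapped with the other for these 2 genes.

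For Cdk2 the GV libraries stood at 0.823, 0.0161 and the floor of 0.01 FPKM and the MII libraries at 0.662, 2.14 and 3.02 FPKM. The ranges overlapped, and the call at 4.99 (adjusted p = 0.0494) was kept without 1 of the 6 libraries, GV library A, and lost in the other 5 cases with values from 3.82 to 5.64. Quantile normalization gave 3.20 (adjusted p = 0.0512). The call was also lost with 0.1 or 1 added (2.94 and 1.16), with no minimum (adjusted p = 0.0924) and with the 2 groups alone (adjusted p = 0.0983). After quantile normalization Ccnd3 (-2.98, adjusted p = 0.00353) and Cdk1 (-2.02, adjusted p = 0.0198) were called lower.

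Ccnb1 was listed at 197, 248 and 95.8 FPKM in the non-polysome fraction at GV and at 117, 82.5 and 76.9 FPKM at MII. These overlapped, and the change of -0.89 was not called (adjusted p = 0.164) unless GV library C was left out (-1.29, adjusted p = 0.0493), while on polysomes Ccnb1 rose. The difference between the 2 changes was 2.60 on the log2 scale (SE 0.60, adjusted p = 0.0690).

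From MII to zygote limma called no gene of the 9 in the non-polysome fraction, beside 3.28% of all genes, and none had an unadjusted p under 0.05. From zygote to zygote M Cks2 rose from 18.5, 17.6 and 12 FPKM to 147, 114 and 81.1 FPKM, a change of 2.81 (adjusted p = 9.08e-05) beside 10.4% of genes. It was called without any single library. After quantile normalization Ccnd3 (2.87, adjusted p = 0.00816) and Cdk2 (-3.97, adjusted p = 0.0282) were called too.

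From zygote M to two-cell Ccne1 and Cdk2 rose, beside 22.9% of genes. Ccne1 went from 0.0241, 0.297 and 0.647 FPKM to 18.2, 17.1 and 10.0 FPKM, so that the groups were far apart, with a change of 6.45 (adjusted p = 0.00126). Cdk2 went from 0.0163, 0.749 and 1.99 FPKM to 7.15, 14.4 and 19.2 FPKM, with a change of 5.44 (adjusted p = 0.0240). Without zygote M library A it was 3.36 (adjusted p = 0.202), and without two-cell library B or C the adjusted p was 0.0567 and 0.0596. With the 2 groups alone it was 0.168. Ccnb1 was called after quantile normalization (-1.30, adjusted p = 0.0283). Between these groups the summed red blood cell genes went from at most 0.165 to between 99.7 and 162 FPKM, and their part in the rises of Ccne1 and Cdk2 was not tested.

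From two-cell to two-cell M Ccnb2 and Ccne2 were lower, beside 36.1% of genes. Ccnb2 stood at 2.35, 10.1 and 6.03 FPKM and then at 6.16, 0.0865 and 0.0142 FPKM, which overlapped. The change of -4.74 (adjusted p = 0.00564) became -2.84 (adjusted p = 0.0766) without two-cell M library C and -1.80 (adjusted p = 0.177) after quantile normalization, and with the 2 groups alone the adjusted p was 0.294. For Ccne2, with all 3 two-cell M libraries at the floor, the fitted change of -5.36 (adjusted p = 0.00064) is no bound on the size of the fall. It was not called with 1 added (-0.78, adjusted p = 0.0965) or with the 2 groups alone (adjusted p = 0.0906).

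Polysome and non-polysome levels were compared at each stage. Cks2 was lower on polysomes at all 6 stages, the one gene of the 9 called at every stage. At GV it was called lower together with Ccnb1, 2 of 9 genes, beside 4.96% of all genes called and 2.35% called lower. At MII Cks2 was the one gene called, beside 0.753% of genes called and 0.703% lower. It was again the one gene called in the zygote, beside 1.38% and 1.34%, and in zygote M, beside 1.92% and 0.49%. At two-cell 4 genes were lower, beside 16.1% called and 6.38% lower. At two-cell M Cks2 was lower and Ccnd3 higher, beside 14.8% called and 5.06% lower.

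From GV to two-cell M, the log2 difference of Cks2 between polysome and non-polysome was -3.87, -2.30, -3.74, -1.97, -2.77 and -1.81 (adjusted p = 1.93e-06, 0.00676, 5.11e-06, 0.0170, 0.000106 and 0.00591). No library of one fraction overlapped with the other at any stage. The call at zygote M was lost without non-polysome library A or polysome library B or C, with adjusted p from 0.0655 to 0.0900. The call at two-cell M was lost after quantile normalization (-0.75, adjusted p = 0.350) and with the libraries of that stage alone (adjusted p = 0.0782).

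Ccnb1 was lower on polysomes at GV (log2 difference -2.19, adjusted p = 0.00205), where all polysome libraries of 31.6 to 47.8 FPKM lay below the non-polysome libraries of 95.8 to 248 FPKM. At MII its difference was 0.41, at the zygote 0.28 and at zygote M -0.31, none of them called. At two-cell it was -1.39 (adjusted p = 0.0248), which became -0.67 (adjusted p = 0.281) after quantile normalization, and -1.06 (adjusted p = 0.131) and -1.17 (adjusted p = 0.107) without non-polysome library B or polysome library C. With the libraries of that stage alone the adjusted p was 0.105. At two-cell M the difference of -1.17 was not called (adjusted p = 0.0610), but it was at -1.56 without non-polysome library B (adjusted p = 0.0162). With genes of at least 1 FPKM on average it was called as well (adjusted p = 0.0494).

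At two-cell Ccna2 was also lower on polysomes, at 5.14 to 9.81 against 20.8 to 52.7 FPKM (log2 difference -2.36, adjusted p = 0.000680). Cdk1 was lower there too, at 0.219 to 2.27 against 3.97 to 6.44 FPKM (-2.83, adjusted p = 0.00226), a call lost with the libraries of that stage alone (adjusted p = 0.162). At GV Cdk1 was the other way round, at 16.8 to 20.4 FPKM on polysomes against 5.35 to 10.7 FPKM, but the difference of 1.32 was not called (adjusted p = 0.231) except with 1 added (1.21, adjusted p = 0.0188). At two-cell quantile normalization also called Ccnb2 lower (-3.78, adjusted p = 0.00799). For Ccnd3 at two-cell M the non-polysome libraries were 0.0135, 0.0212 and 1.56 FPKM against 0.693, 1.08 and 1.81 FPKM. These overlapped, and the call at 3.86 (adjusted p = 0.0136) was lost after quantile normalization (1.58, adjusted p = 0.193) and without non-polysome library A or B or polysome library C, with values down to 2.60. It was also lost with 1 added (0.63, adjusted p = 0.178) and with the libraries of that stage alone (adjusted p = 0.493).

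**Figure D4:**
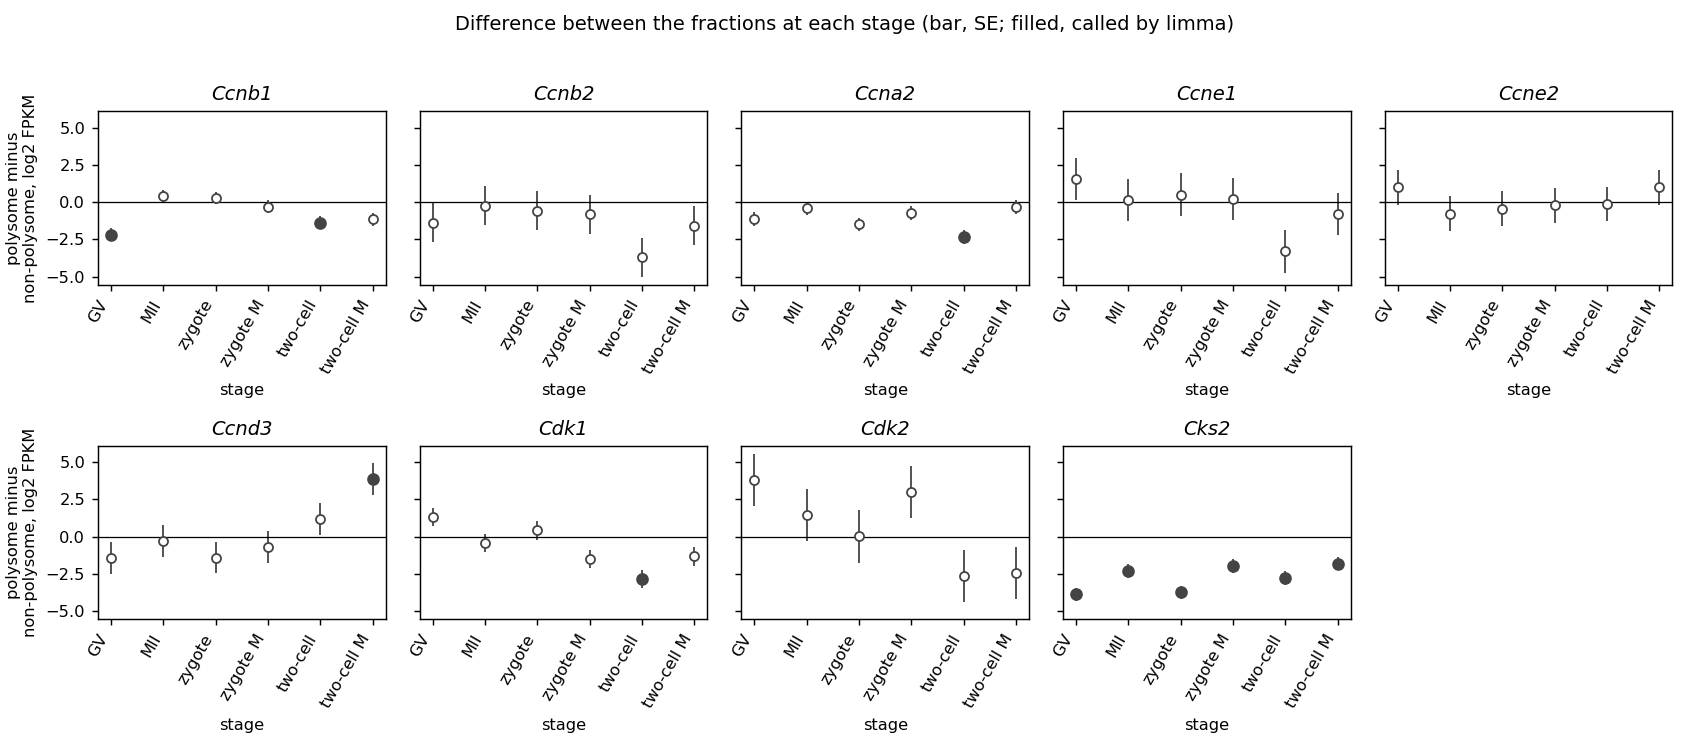
Log2 FPKM in polysomes minus log2 FPKM in the non-polysome fraction at each stage for the 9 genes tested, with the SE as bars; filled points were called by limma. Cks2 is filled and below 0 at all 6 stages, from -3.87 to -1.81, and Ccnb1 is filled at GV (-2.19) and two-cell (-1.39).

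Whether the change on polysomes differed from that in the non-polysome fraction was tested in 3 pairs of stages. None of the 27 tests was called with limma, beside 0.163%, 0.289% and 5.75% of all genes. At an unadjusted p under 0.05 there were 2, 2 and 1 genes. The nearest to the threshold were Ccnb1 from GV to MII (2.60, adjusted p = 0.0690) and Ccna2 from two-cell to two-cell M (2.04, SE 0.64, adjusted p = 0.0555). Ccnb1 was called with 0.1 or 1 added to each FPKM, with genes of at least 1 FPKM on average, after quantile normalization, with the libraries of the groups compared alone, and without the polysome or non-polysome GV library C, with values from 2.56 to 3.0005. Ccna2 was called with 1 added, with genes of at least 1 FPKM on average and without non-polysome two-cell library B (2.48).

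Profiles most like those of the genes were sought among 4015 protein-coding genes, as Pearson's r of log2 FPKM over 36 libraries that share stage and fraction in groups of 3. For Ccnb1 these were Akirin2 (0.80), Slbp (0.75) and Kctd5 (0.75), and for Ccnb2 Snrnp27 (0.92), Rac1 (0.90) and AI987944 (0.88). For Ccna2 they were Med10 (0.80), Eif1 (0.80) and Ube2d2a (0.79). For Ccne1 they were Selenos (0.86), Folr1 (0.84) and Nop16 (0.84). For Cdk1 they were Pa2g4 (0.72), Dppa3 (0.70) and Pdia3 (0.67), the lowest of these values, and for Cks2 Gm8186 (0.94), Gm7879 (0.94) and Snrpg (0.93).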

How the data were processed

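Per the labels and methods, the authors sequenced polysome and non-polysome RNA with SMART-seq v4 libraries as 150-base read pairs. The submitters' processing notes name Trim Galore 0.4.1, STAR 2.5.3a, the build GRCm38 and Partek. The authors deposited normalized FPKM per gene, the one unit used. The methods name RefSeq genes, while the positions in the table match GENCODE vM21 with the end shifted by 1. FPKM carries no depth, so counting error could not be given.

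The deposited FPKM were taken to log2 without a pseudocount, and limma 3.58.1 (R 4.3.3) fitted them as 12 group means over 36 libraries, with a trend. The 7967 genes whose geometric mean reached 0.1 FPKM were tested, two-sided, with Benjamini-Hochberg adjustment over all of them. A gene was called at an adjusted p under 0.05 and a fold change beyond 2. An exact permutation test of 3 against 3 cannot go below 0.1 and was not used. The fit was also tried on simulated data, and the outcome is not given here. Python 3.11.15 with pandas 2.3.3 and numpy 2.4.6 made the other tables.

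Named are the 10 genes, their copies, 3 most similar profiles for 6 of them, and those of 42 other cell cycle genes called in 2 or more of the M-phase comparisons on polysomes. These genes and lists were chosen with earlier results of these data known. Other copies and the overlapping genes were named after their values were seen. Alternatives were 0.1 or 1 added to FPKM, no minimum, an arithmetic mean of 1 FPKM or more, quantile normalization, fewer libraries, the replicate letter as a block and leaving out each library. One result on a gene outside the 10 is not reported here.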

Additional observations from a re-analysis of the deposited data

Results flagged for a closer look

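A comparison of M-phase changes on polysomes between the cell cycles was added after the data had been seen, as the difference of 2 changes in the same limma fit. Among the 9 genes 6 differences were called, 2 in each of the 3 pairs of cycles, and 1 for the copy Ccnb1-ps. Of all genes 9.51%, 23.5% and 23.7% were called, so in the last 2 pairs the shares were close.

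The change of Cks2 from GV to MII was lower than that from zygote to zygote M by a log2 difference of -4.83 (SE 0.63, adjusted p = 3.57e-06). Its change from zygote to zygote M exceeded that from two-cell to two-cell M by 4.54 (SE 0.63, adjusted p = 5.85e-06). The change of Ccna2 from GV to MII was lower than that from zygote to zygote M, with a difference of -2.39 (SE 0.64, adjusted p = 0.0146), and lower than that from two-cell to two-cell M, with -2.18 (SE 0.64, adjusted p = 0.0133).

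The fitted change of Cdk1 was down in the first 2 of these M-phases and up in the third, where its libraries overlapped. The rise was not called without two-cell library B (1.27, adjusted p = 0.0955). The change of Cdk1 from GV to MII differed from that from two-cell to two-cell M by -5.20 (SE 0.86, adjusted p = 6.42e-05). Its change from zygote to zygote M differed from that from two-cell to two-cell M by -4.47 (SE 0.86, adjusted p = 0.000425). For Ccnb1-ps the change from GV to MII exceeded that from zygote to zygote M by 1.94 (SE 0.59, adjusted p = 0.0324). Ccnb1 itself, at 1.82 (adjusted p = 0.0520), did not pass the threshold, but it was called after quantile normalization (2.15, adjusted p = 0.00954). The call for Ccnb1-ps was lost without any one of 8 of the 12 libraries, with values from 1.59 to 2.01, and with no minimum (adjusted p = 0.0599). Nocodazole was given to the embryos in M-phase and not to MII oocytes, so the cycle and the treatment cannot be told apart in the comparisons with MII.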

How the results depend on the processing

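Of 56 called changes, 54 were still called with 0.1 added to each FPKM, 50 with 1 added, 53 with no minimum, 52 of 52 with a mean of at least 1 FPKM, 46 after quantile normalization and 43 with the libraries of the groups compared alone. Quantile normalization also called 22 changes of the genes that were not called without it, 8 of them of Ccnd3, 4 of Ccnb2 and 3 of Ccne1, in comparisons of groups. Calls among all genes moved too, up in some comparisons and down in others. On polysomes they went from 268 higher and 219 lower to 701 and 844 in MII against GV. In MII against two-cell M they went from 3598 and 626 to 1835 and 1808. Over 372 fits without 1 library 306 calls held and none reversed. Among changes that were not called and that were refitted, some turned without 1 library: from GV to MII on polysomes Cks2 (-0.92 to 0.33), Ccnb2 (-0.37 to 0.38), Ccne1 (-2.39 to 0.68) and Ccne2 (-0.79 to 0.38), from zygote to zygote M Ccnb1 (-0.39 to 0.23), Ccnb2 (-0.36 to 0.70) and Ccne1 (-1.44 to 0.34), from two-cell to two-cell M Cks2 (-0.0079 to 0.12), and between fractions at zygote M Ccnb1 (-0.67 to 0.034). From zygote to zygote M quantile normalization turned Ccne1 (0.27) and Ccne2 (0.0015), and the replicate block turned Ccnb2 (-0.11); the cause was not tested.

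Counts of calls among the genes were 8 (6 to 10) for M-phase on polysomes, 13 (10 to 17) for oocyte against embryo, 10 (8 to 15) for successive stages, 8 (6 to 11) in the non-polysome fraction and 16 (14 to 16) for the stage effect. Polysome against non-polysome gave 11, and 17 with 1 added. Change on polysomes against change in the non-polysome fraction gave 0, and 1 with 0.1 added, 2 with 1 added, 2 with a mean of at least 1 FPKM, 1 after quantile normalization, 3 with the libraries of the groups compared alone, 0 to 2 without 1 library, and 1 without both non-polysome two-cell and two-cell M libraries A, an alternative chosen after seeing the data. The comparison between cycles, also added then, gave 6, and 12 with 1 added, 11 after quantile normalization and 10 with fewer libraries. Among all genes, quantile normalization moved the calls from 403 higher and 355 lower to 872 and 1085 for GV to MII against zygote to zygote M. They went from 1489 and 385 to 1158 and 1261 for GV to MII against two-cell to two-cell M. For zygote to zygote M against two-cell to two-cell M they went from 1342 and 547 to 1268 and 1088.

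Across stages the same replicate letter had a mean residual correlation of 0.0205 on polysomes and 0.0176 off them. For other letters of the same fraction at other stages the mean was -0.0079. Of the same-letter pairs 3 of 40 on polysomes and 2 of 40 off them exceeded 0.1, against 2 of 190 for other letters. The polysome and non-polysome libraries of the same stage and letter had a mean of 0.0756, with 6 of 18 over 0.1, against -0.0372 for other letters. With the letter as a replicate block 36 of 45 calls held, and those that did not, with their adjusted p, were zygote to zygote M on polysomes for Ccna2 (0.160) and Cdk1 (0.0525), GV against zygote for Ccnb1 (0.134) and Ccna2 (0.124), GV against two-cell for Ccna2 (0.0673), MII to zygote for Cdk1 (0.0954) and Cks2 (0.0784), and, in the non-polysome fraction, GV to MII (0.0911) and zygote M to two-cell (0.0505) for Cdk2. For Ccnb1-ps GV against zygote (0.0548) and the difference between cycles (0.0617) were not called either. In number of calls, M-phase on polysomes gave 6, oocyte against embryo 10 and successive stages 8. A block by gradient, pairing the fractions of a letter, kept 11 of 11 calls between fractions and gave 12. The letter block was set within each fraction and so gives no comparison of fractions.

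Unknown depth limits fold changes that rest on values near the floor, as for Ccne2, Ccnd3, Cdk2 and Ccnb2 in two-cell stages and Ccne1 in MII and zygote stages.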
